A study of Trichosurus vulpecula with 6 samples.

Results

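Interferon response genes are the genes that cells switch on when they sense a virus or receive an interferon signal from a neighbouring cell. The 7 genes described here were ISG15, MX1 and RSAD2, which are antiviral effectors, IFIH1 and DDX58, which encode sensors of viral RNA, and STAT2 and IRF7, which encode transcription regulators of the pathway. They were chosen by name, with earlier results on the same libraries known. A level was obtained for 6 of the 7, among 15518 genes whose mean reached 1 TPM, the abundance StringTie gives to a transcript, corrected for its length and for the total of the library. MX1 had no matching symbol in the RefSeq gene table and no transcript carried its name, so no value is given for it, which is not the same as a value of 0.

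The libraries were made from ear punch skin of wild common brushtail possums (Trichosurus vulpecula) from Dunedin, New Zealand, all adult females, of which 3 had grey and 3 had black fur. The study asked how the 2 coat colours arise, and the animals differ by natural colour, with no treatment. Each library is 1 possum, named below by colour and replicate number. The animals were wild, and their health and recent infections are not given in the sources used here. The labels call the tissue skin. The keratinocyte gene PKP1, the only 1 of 7 such markers listed that had a symbol in the RefSeq gene table, was at 249 to 503 TPM. Of 5 fibroblast markers DCN had the highest level, at 720 to 2236 TPM over the 6 libraries. Others were lower, such as COL1A1 (16.8 to 354 TPM) and PDGFRA (12.2 to 20.1 TPM).

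In the pathway, sensors in the cytoplasm such as the products of IFIH1 (MDA5) and DDX58 (RIG-I) recognise viral RNA and act through the adaptor MAVS and the kinase TBK1 to switch on interferon genes. Secreted interferon binds receptors on the same and neighbouring cells, and the receptor-bound kinases, JAK1 among them, activate transcription factors such as STAT2, which acts together with IRF9. These factors turn on many antiviral genes, ISG15, RSAD2 and IRF7 among them. IRF7 then feeds back by driving more interferon, so the effectors are outputs of the pathway, whereas several regulators are also present in resting cells. Skin is a barrier tissue whose keratinocytes, fibroblasts and resident immune cells can all respond to interferon.

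The effectors differed between possums more than the sensors and regulators did. ISG15 varied 38.4-fold over the 6 libraries and STAT2 varied 1.30-fold. Both effectors had a higher mean in black skin, but the spread among possums of 1 colour was of the same order as the difference and the colours overlapped. In bulk skin, fewer cells of a type and less RNA per cell cannot be told apart.

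ISG15 encodes a ubiquitin-like protein that is attached to other proteins during the antiviral response. Its gene lies on chromosome 2, from 34121317 to 34124870 on the minus strand of the assembly mTriVul1.pri. ISG15 was at 14.9, 2.72 and 1.15 TPM in grey possums 1, 2 and 3, and at 44.3, 37.9 and 4.24 TPM in black possums 1, 2 and 3. Black 1 and black 2 were the highest, but black 3 was below grey 1, so the colours overlapped. The means were 6.26 ± 7.54 TPM for grey and 28.8 ± 21.5 TPM for black skin (SD, n = 3 each). Black exceeded grey by 2.06 on the log2(TPM + 1) scale, where the added 1 shrinks differences between low levels (SE 1.03, limma, 95% interval −0.38 to 4.50). The within-colour SD of 1.62 was larger than that of 97.7% of all genes tested, for which the median was 0.32. The ISG15 values rest on an estimated 41.6 reads in grey 3 to 1218 reads in black 1.

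RSAD2 encodes viperin, an enzyme that makes a nucleotide which stops viral RNA synthesis. It lies on chromosome 3, from 236020950 to 236038320 on the minus strand. RSAD2 was at 4.55, 0.384 and 0.205 TPM in the grey possums and at 5.22, 10.7 and 2.10 TPM in the black possums. It was low in the same grey possums as ISG15, and black 3 was again below grey 1. The means were 1.71 ± 2.46 TPM for grey and 6.01 ± 4.35 TPM for black skin (SD, n = 3 each), a difference of 1.54 on the log2(TPM + 1) scale (SE 0.72, 95% interval −0.19 to 3.26). With 0.1 TPM added in place of 1 the difference was 2.51, so its size depends on how the low grey values are treated. Its within-colour SD of 1.10 was larger than that of 94.9% of genes. Black 2 was 27.8 times higher than grey 2, the second lowest library, which held about 6.94 reads. No fold is given against grey 3, where the value rests on 1.98 reads.

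IFIH1 encodes MDA5, which recognises long double-stranded RNA. It lies on chromosome 2, from 213960931 to 214069117 on the minus strand. IFIH1 was at 6.50, 5.87 and 4.51 TPM in the grey possums and at 5.09, 8.32 and 6.09 TPM in the black possums, with means of 5.63 ± 1.01 and 6.50 ± 1.65 TPM (SD, n = 3 each). Black 1 lay below grey 1 and grey 2, so the colours overlapped. Black exceeded grey by 0.17 on the log2(TPM + 1) scale (SE 0.25, 95% interval −0.42 to 0.75), and the highest library was 1.84 times the lowest. It rested on single libraries, at 0.04 without grey 3, 0.00 without black 2, 0.26 without grey 1 and 0.31 without black 1. At least 641 reads stood behind every IFIH1 value.

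DDX58 encodes RIG-I, which recognises viral RNA by its 5′ end. It lies on chromosome 9, from 15803571 to 15880054 on the plus strand. DDX58 was at 6.51, 6.60 and 3.68 TPM in the grey possums and at 9.002, 7.97 and 5.05 TPM in the black possums, with means of 5.59 ± 1.66 and 7.34 ± 2.05 TPM (SD, n = 3 each). Black 3 lay below grey 1 and grey 2. The difference was 0.34 (SE 0.30, 95% interval −0.37 to 1.06) on the log2(TPM + 1) scale. It was 0.11 without grey 3, 0.20 without black 1 and 0.56 without black 3.

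STAT2, which relays the interferon signal to the nucleus, was the steadiest of the 6 genes. It lies on chromosome 5, from 266235990 to 266258281 on the plus strand. STAT2 was at 21.3, 20.0 and 16.4 TPM in the grey possums and at 18.4, 20.7 and 16.5 TPM in the black possums, with means of 19.2 ± 2.57 and 18.5 ± 2.13 TPM (SD, n = 3 each). The colours covered nearly the same range. The difference was −0.05 (SE 0.18, 95% interval −0.47 to 0.38), and its within-colour SD of 0.17 was larger than that of 16.6% of genes. It was also the best covered of the 6, with 1287 to 2638 reads.

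IRF7 drives interferon genes and is itself an interferon target. It lies on chromosome 6, from 284364959 to 284369835 on the plus strand. IRF7 was at 7.16, 2.23 and 1.71 TPM in the grey possums and at 2.14, 4.45 and 3.75 TPM in the black possums, with means of 3.70 ± 3.01 and 3.45 ± 1.19 TPM (SD, n = 3 each). Grey 1 held the highest value, and the black values lay within the grey range. The mean in TPM was lower in black skin, whereas the difference on the log2(TPM + 1) scale was 0.06 (SE 0.47, 95% interval −1.06 to 1.19), so IRF7 has no direction here. Each value rests on 57.6 to 192 reads.

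**Figure D1:**
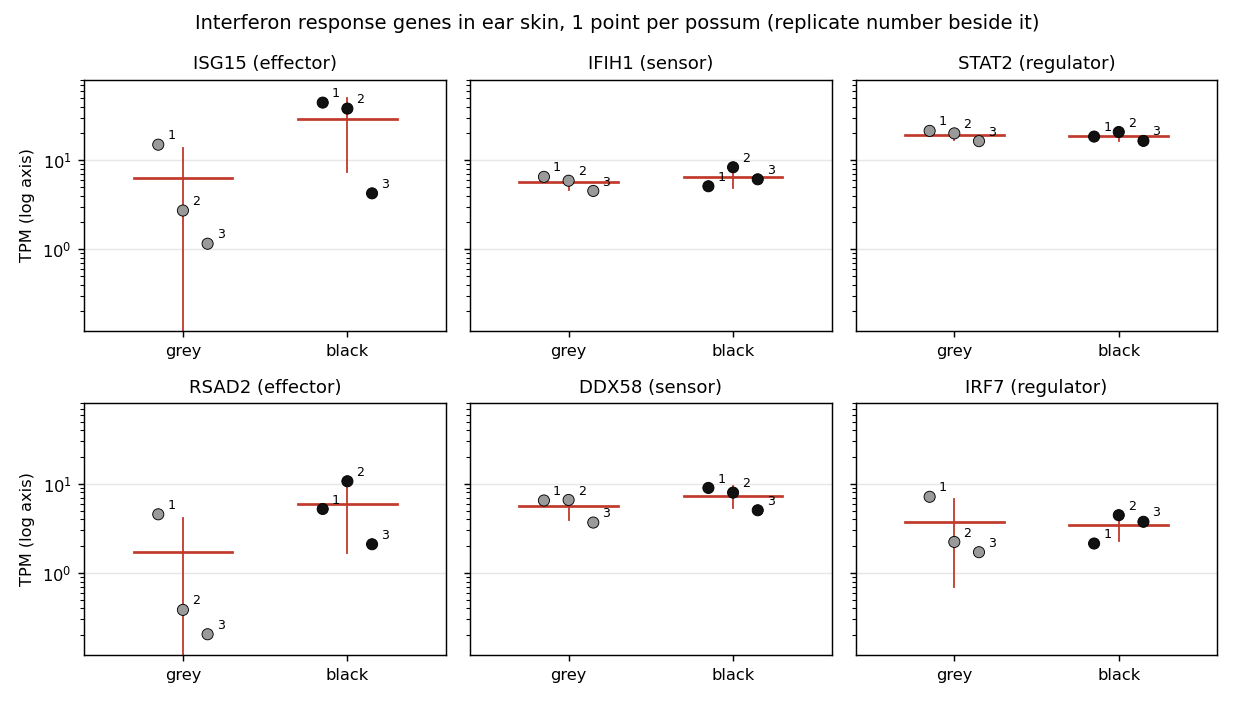
TPM of the 6 measured interferon response genes (y axis, log scale) in grey and black skin, with 1 point per possum, its replicate number beside it, a red line at the mean of each colour and a red bar for the SD (n = 3), cut at the lower edge of the axis where it would reach below. ISG15 runs from 1.15 to 44.3 TPM and STAT2 from 16.4 to 21.3 TPM, and the colours overlap in every panel.

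Because the genes were chosen with their black against grey values known, these differences are a description. None of the 6 passed the fit over all genes (limma, Benjamini-Hochberg adjusted p of 1.00 for each, and 0 at an unadjusted p under 0.05), in a comparison that called 0.0193% of the 15518 genes (0.0129% with black above grey and 0.00644% with black below), and 0 of the 6 had colours that did not overlap, against 4.05% of all genes with every black library above every grey and 2.27% with the reverse. In simulated data of this size, 0% of genes shifted by 1 on the log2(TPM + 1) scale and 66.3% of genes shifted by 2 were found. These shifts are 2-fold and 4-fold in TPM + 1. A change of 2-fold in TPM is no larger than a shift of 1 and would thus not have been detectable here. For a gene of low level, a 4-fold change in TPM is a shift well below 2, so the 66.3% does not apply to it. At a shift of 2 there were 6.4 false calls per draw. The changed genes were drawn from all genes, each with its own spread. The 66.3% is therefore not a rate for ISG15 or RSAD2, whose within-colour SD exceeded that of 97.7% and 94.9% of genes. The median difference of the 6 genes was 0.26, beside 0.04 over all genes. All 6 were lowest in grey 3, the library with the most aligned bases, which held the lowest value of 23.6% of all genes. The highest library was black 1 for ISG15 and DDX58, black 2 for RSAD2 and IFIH1, and grey 1 for STAT2 and IRF7.

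Effectors and regulators were then set against each other within each possum, which reduces differences that scale both alike. Because of the added 1 they do not cancel fully at low levels, such as those of RSAD2 in grey 2 and grey 3. The mean log2(TPM + 1) of ISG15 and RSAD2 minus that of STAT2 and IRF7 was −0.52, −1.86 and −2.09 in the grey possums and 1.11, 0.97 and −1.18 in the black possums. Regulators exceeded effectors in all 3 grey possums and in black 3, and effectors exceeded regulators in black 1 and black 2. The mean of this quantity was higher by 1.79 in black skin, with a pooled within-colour SD of 1.09. The ratio of ISG15 to STAT2 in TPM ran from 0.0705 in grey 3 to 2.41 in black 1. Counting the sensors with the effectors lowered the difference to 1.02.

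The structure of the assembled transcripts bears on these levels, because transcripts were assembled in each library separately and a gene that falls into disjoint pieces has its TPM added up over them. IFIH1 and STAT2 were assembled as 1 piece in all 6 libraries, with up to 17 exons for IFIH1 and up to 25 for STAT2. ISG15 had 2 exons, one ending at 34122071 and one starting at 34124782, and in grey 2 and black 3 the longer exon alone was assembled. Black 1 and black 2 also held forms of ISG15 with an additional middle exon, at 1.45 and 0.723 TPM in black 1 and 10.2 TPM in black 2. RSAD2 was assembled with 6 exons in grey 1, black 1 and black 2, where its 3′ end lay at 236019226 to 236019243, beyond the RefSeq end at 236020950. In grey 2 and grey 3 RSAD2 was a fragment of 526 and 217 nt, and in black 3 it was in 2 pieces.

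DDX58 and IRF7 were the most broken up. DDX58 was in 1 piece in grey 1, black 1 and black 2 and in 2 pieces in the other libraries. IRF7 was in 3 pieces in grey 1, 1 in grey 2 and black 1, and 2 in the rest. The highest IRF7 value by TPM, that of grey 1, is the sum of 1.84, 3.30 and 2.02 TPM over pieces of 361, 257 and 843 nt, with 57.6 reads in all.

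A measure free of this summing was therefore computed after the values had been seen, as the mean coverage per aligned gigabase over the exon positions assembled in all 6 libraries. For IRF7 (1294 nt) it was 1.15, 1.27 and 0.472 in the grey possums and 0.995, 1.18 and 1.00 in the black possums, so that grey 1 was no longer the highest and the span shrank from 4.19-fold in TPM to 2.68-fold. For DDX58 (1978 nt) it was 3.65, 1.51 and 0.939 in the grey and 3.46, 4.48 and 1.82 in the black possums, and the span widened from 2.45-fold to 4.77-fold. The DDX58 difference rose from 0.34 to 0.81 on this log2 scale, which has no pseudocount. By coverage DDX58 was low in grey 2, grey 3 and black 3, the libraries in which ISG15 and RSAD2 were lowest.

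**Figure D2:**
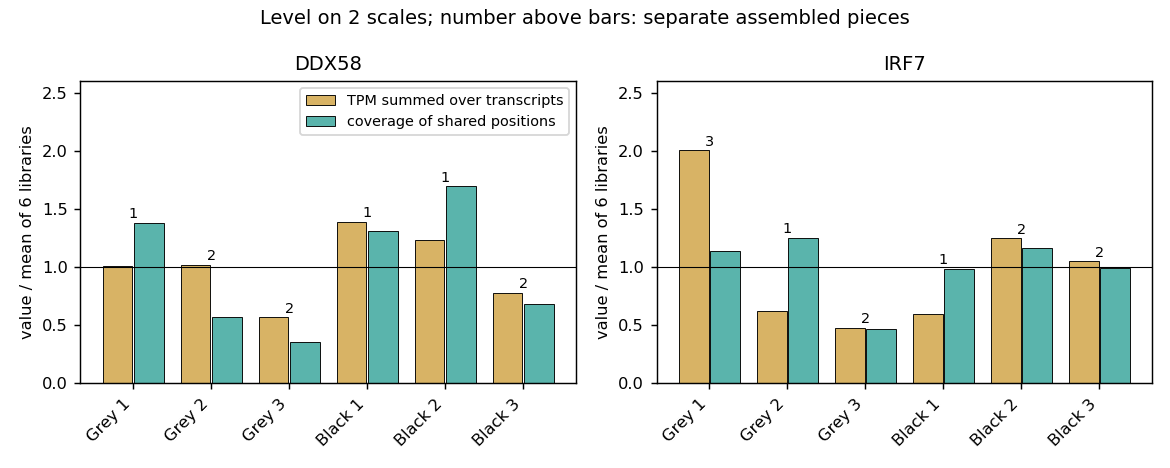
Level of DDX58 (left) and IRF7 (right) in each library, divided by the mean of the 6 libraries (y axis, from 0), by TPM summed over transcripts (ochre bars) and by coverage of the exon positions shared by all libraries (teal bars), with the number of separate assembled pieces above each pair. IRF7 in grey 1, in 3 pieces, is the highest by TPM and not by coverage, and DDX58 in grey 2 falls below the mean by coverage.

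The other genes kept their pattern. ISG15 (741 nt) was at 8.98, 1.34 and 0.626 in the grey and 24.2, 21.9 and 2.18 in the black possums in coverage per gigabase, a span of 38.7-fold. RSAD2, over the 217 nt that grey 3 held, was at 1.22, 0.167 and 0.107 in the grey and 2.21, 4.19 and 0.477 in the black possums, a log2 difference of 2.55, beside 1.54 by TPM. The size of this difference is uncertain, since RSAD2 had 1.98 reads in grey 3 and 6.94 in grey 2. IFIH1 (4550 nt) spanned 1.88-fold and STAT2 (3293 nt) 1.32-fold, close to their spans in TPM. On this scale effectors minus regulators was −0.12, −2.94 and −2.96 in the grey and 1.27, 1.39 and −1.57 in the black possums, so the order of the colours and the place of black 3 were as in TPM.

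**Figure D3:**
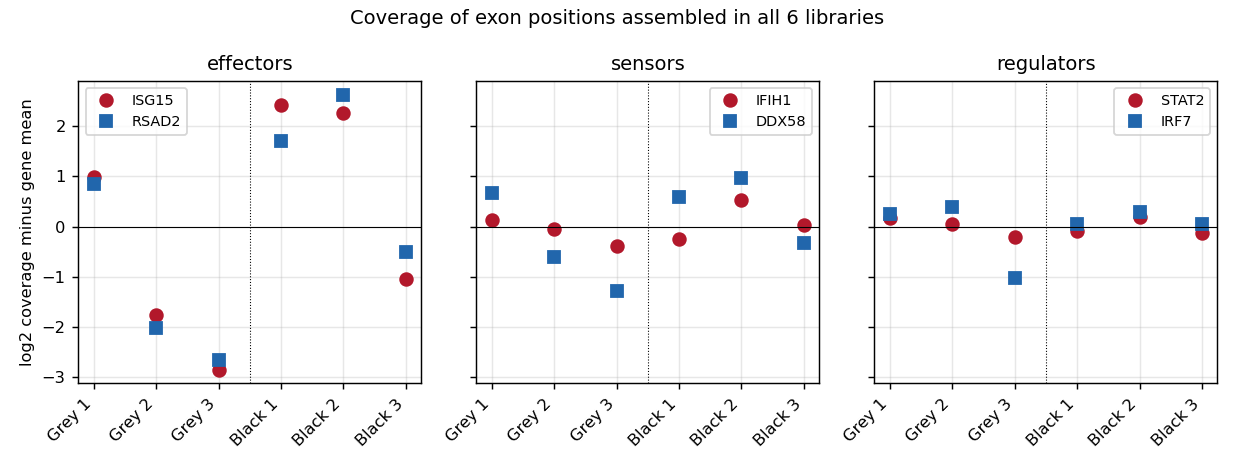
Log2 coverage per aligned gigabase of the exon positions assembled in all 6 libraries, minus the mean of each gene (y axis), in each library (x axis, grey on the left of the dotted line) for effectors, sensors and regulators. ISG15 and RSAD2 are low in grey 2, grey 3 and black 3, whereas STAT2 and IFIH1 stay near 0 in every library.

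STAT2 also differed in where its transcripts started. In grey 2, black 2 and black 3 they started between 266237955 and 266238054. In grey 3 both transcripts started at 266247978, as did 16.8 of the 18.4 TPM in black 1, and in grey 1 a transcript starting at 266238073 was at 9.31 TPM and 3 transcripts starting at 266242927 were at 7.91, 3.49 and 0.605 TPM. The summed level nevertheless stayed between 16.4 and 21.3 TPM. The start of an assembled transcript depends on coverage at its 5′ end, and the part of that in these differences was not tested.

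The wider pathway was described with a list of 89 further genes, of which 56 had a symbol in the RefSeq table and 53 reached a mean of 1 TPM. None of the 53 passed the fit over all genes in either direction (limma, 0 of 53, with 3 at an unadjusted p under 0.05, or 0.0193% and 2.31% of all genes). The difference was positive for 39 of the 53, with a median of 0.19, and for 8842 of the 15518 genes, with a median of 0.04. By role, the median was 0.37 for 23 effectors, 0.19 for 9 sensors and adaptors, 0.11 for 7 transcription factors, 0.00 for 9 receptors and kinases and −0.02 for 5 inhibitors. By coverage of the exon positions shared by all libraries, a count added after the values were seen, 47 of the 53 were positive with a median of 0.29, beside 61.1% of the 14476 tested genes that had such positions, with a median of 0.05. On that scale all 23 effectors were positive (18 by TPM) with a median of 0.57. So were 9 of 9 sensors and adaptors (8 by TPM), with a median of 0.48. Some of these rest on few positions: TLR3 on 65 nt, SAMD9L on 148 nt and EPSTI1 on 218 nt. TLR3, and UBA7, HERC6, EIF2AK2, HELZ2 and ADAR among the effectors, were negative by TPM. The interferon genes IFNK and IFNL3, the only ligands matched, were listed at 0 in all 6 libraries.

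Among the effectors, the genes of highest mean level were steady. ADAR, which edits double-stranded RNA, was at 36.9 to 48.8 TPM and differed by −0.06 (SE 0.16) in TPM and by 0.10 in coverage of shared positions. PARP12, an antiviral ADP-ribosyltransferase, was at 29.4 to 46.2 TPM and differed by 0.25 (SE 0.17). The largest differences among the effectors by TPM belonged to XAF1 and IFI35. By coverage of shared positions, looked at afterwards, the largest were EPSTI1 (1.95) and OASL (1.67), with XAF1 at 1.66 and IFI35 at 1.35.

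XAF1, an interferon-induced promoter of cell death, was at 9.13, 4.02 and 2.81 TPM in the grey and 17.4, 11.0 and 10.4 TPM in the black possums. Its colours did not overlap, and the difference was 1.23 (SE 0.40, adjusted p = 1.00, limma). IFI35, which modulates innate signalling, was at 13.0, 12.8 and 4.72 TPM in the grey and 30.5, 25.5 and 16.1 TPM in the black possums, a difference of 1.23 (SE 0.41, adjusted p = 1.00, limma), also without overlap. With UBE2L6 and ZC3HAV1, 4 of the 53 genes had every black library above every grey, or 4 of the 23 effectors, where the share over all genes was 4.05%. By coverage it was 9 of the 53 and 5 of the 23, beside 4.51% of all genes. The rest of the 9 were 3 of the 9 sensors and adaptors and 1 of the 7 transcription factors. Unlike ISG15 and RSAD2, XAF1 was higher in black 3 than in grey 1.

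Across the 23 effectors the single highest library was black 1 for 12 genes (52.2%, beside 21.7% of all genes) and grey 1 for 5 genes (21.7%, beside 16.7%). Black 2 and black 3 were the highest for 3 genes each, and grey 2 and grey 3 for 0. By coverage of shared positions the highest library was black 1 for 14 (60.9%, beside 17.7% of all genes), black 2 for 7 (30.4%, beside 15.9%), black 3 for 2 and every grey library for 0, so the places of grey 1 did not hold on that scale. The lowest library was grey 3 for 13 of the 23 on both scales (56.5%, beside 23.6% of all genes by TPM and 21.5% by coverage). EPSTI1, OASL, EIF2AK2 and CMPK2, named here after their values were seen, were among the effectors that varied most and were lowest in grey 2 or grey 3. EIF2AK2 went the other way in TPM, at 10.4, 6.87 and 1.84 in the grey and 5.10, 3.84 and 3.01 in the black possums. Its difference was −0.37 (SE 0.52) in TPM and 0.68 in coverage of shared positions.

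OASL, which strengthens signalling by RIG-I, was at 4.66, 0.923 and 0.405 TPM in the grey and 7.67, 4.73 and 1.72 TPM in the black possums. CMPK2, a nucleotide kinase that lies 13.8 kb from RSAD2, was at 4.02, 0.971 and 0.672 TPM in the grey and 3.70, 4.17 and 1.36 TPM in the black possums. Both were low in grey 2, grey 3 and black 3, as RSAD2 was.

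**Figure D4:**
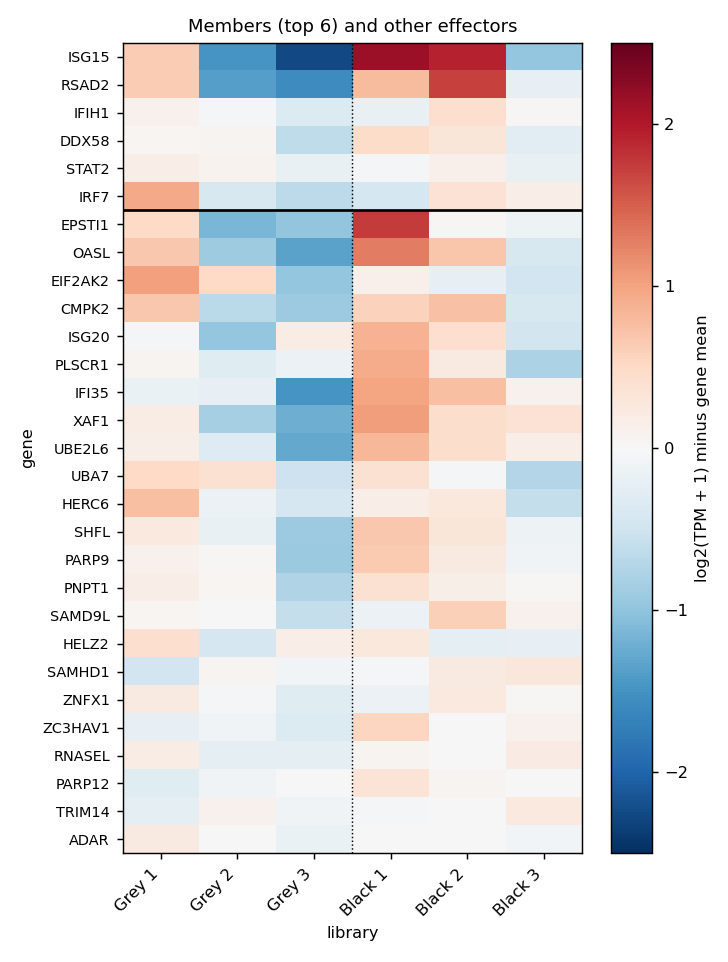
Log2(TPM + 1) minus the mean of each gene (colour scale) in each library (columns, grey left of the dotted line) for the 6 measured interferon response genes (above the black line) and the 23 other effectors tested (below it, in order of falling within-colour SD). ISG15 is highest in black 1 (44.3 TPM) and lowest in grey 3 (1.15 TPM), and the bottom rows, such as ADAR, are nearly even.

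The enzymes that attach and remove the ISG15 protein were examined after the values were seen. UBE2L6, the conjugating enzyme, was at 8.19, 5.66 and 2.43 TPM in the grey and 13.7, 10.2 and 8.29 TPM in the black possums. USP18, which removes ISG15 and dampens receptor signalling, was at 5.48, 2.01 and 3.62 TPM in the grey and 29.9, 8.50 and 2.58 TPM in the black possums. Like ISG15 itself, USP18 was highest in black 1, at a level 14.9 times that of grey 2. In black 2, 25.5% of the coverage over USP18 lay in transcripts assigned elsewhere and is missing from its TPM. By coverage of shared positions USP18 was at 16.3 in black 1 and 7.03 in black 2. UBA7, the activating enzyme, was at 2.06 to 6.16 TPM, and its difference changed from −0.24 in TPM to 0.99 in coverage of shared positions. HERC6, a ligase of the pathway, was at 3.37 to 10.05 TPM, and its difference likewise turned from −0.12 to 0.38, so neither has a direction here.

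Of the sensing and signalling genes above the effectors, MAVS and TBK1 varied little. MAVS, the adaptor of both sensors, was at 25.3 to 28.4 TPM, and its within-colour SD of 0.05 was larger than that of 0.374% of genes. TBK1, its downstream kinase, was at 20.2 to 29.1 TPM. DHX58, a sensor related to RIG-I that lacks its signalling domain, was at 4.47, 9.83 and 6.74 TPM in the grey and 14.7, 8.82 and 8.89 TPM in the black possums, a difference of 0.58 (SE 0.32). STING1, the adaptor for cytosolic DNA, was at 10.02 to 22.6 TPM and differed by 0.44 (SE 0.28).

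Among receptors and kinases, IFNGR1 (65.6 to 105 TPM), which binds interferon gamma, and JAK1 (45.9 to 62.3 TPM) had the highest means. IFNAR1, a chain of the type I interferon receptor, was at 10.1 to 18.2 TPM and differed by 0.31 (SE 0.22). IFNLR1, the receptor chain for interferon lambda, was at 10.5, 14.2 and 14.7 TPM in the grey and 5.47, 11.3 and 10.8 TPM in the black possums, a difference of −0.52 (SE 0.30), the lowest of the 53. Black 1, where ISG15 was highest, thus had the lowest IFNLR1.

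IRF3 (16.0 to 34.0 TPM) and IRF2 (13.6 to 21.3 TPM), a constitutive activator and a repressor of interferon genes, differed by 0.11 (SE 0.31) and −0.06 (SE 0.22).

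IRF9, which binds DNA together with STAT2, shows the effect of assembly on a level. Its TPM was 4.34, 0 and 0 in the grey and 2.06, 33.1 and 1.65 in the black possums, but in every library except black 2 its exons lay in transcripts of 30 exons that ran on into the neighbouring gene RNF31 and were assigned to it. Over the 1488 nt of IRF9 exons assembled in all libraries, coverage per gigabase was 12.8, 11.4 and 12.7 in the grey and 16.8, 17.6 and 14.1 in the black possums, a span of 1.54-fold. The TPM difference of IRF9, 1.90 (SE 1.13), therefore does not give its level. By coverage the log2 difference was 0.39 and every black library was above every grey, as for 4.51% of all genes.

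The inhibitors had no common direction in TPM, where 2 of 5 were positive, and 4 of 5 were positive by coverage. PTPN2, a phosphatase that acts on JAK and STAT proteins, was at 58.0 to 117 TPM and USP25, a protease of innate signalling, at 8.29 to 10.5 TPM, differing by −0.18 (SE 0.29) and −0.02 (SE 0.18) in TPM and by 0.09 and 0.01 in coverage. SOCS1, which blocks JAK kinases, was at 7.32, 0.736 and 4.21 TPM in the grey and 1.33, 2.12 and 3.40 TPM in the black possums, a difference of −0.41 (SE 0.60). It was highest in grey 1, and USP18 in black 1.

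**Figure D5:**
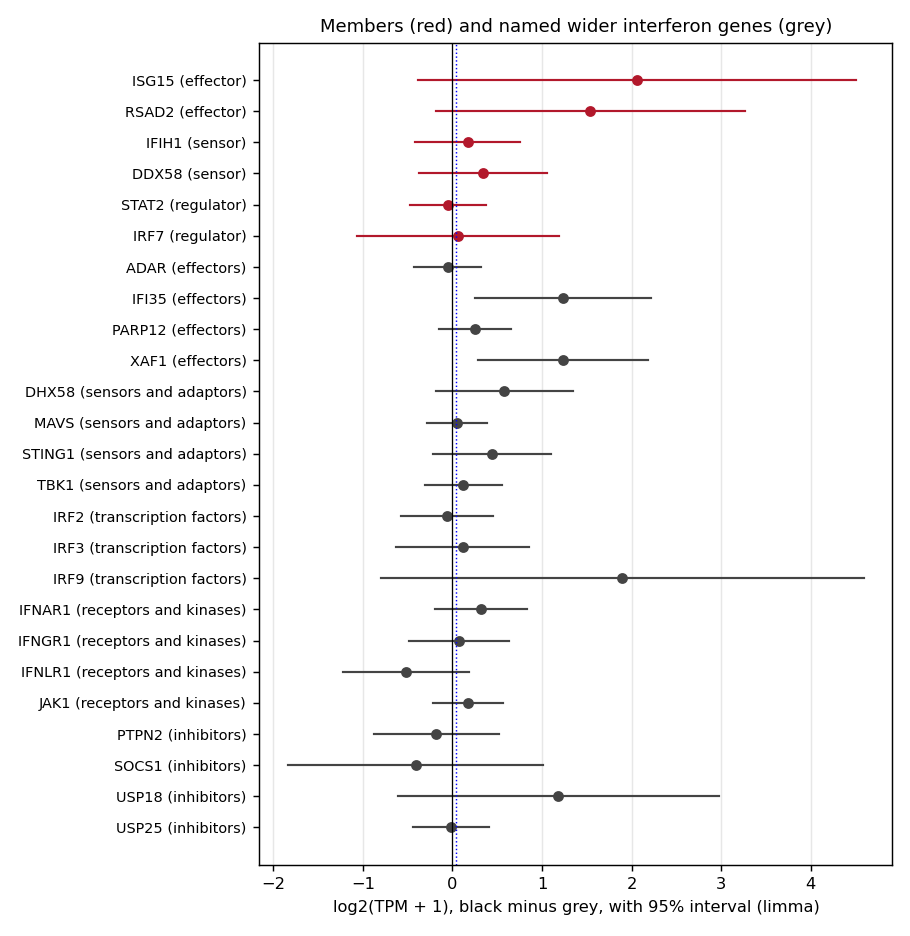
Difference in log2(TPM + 1), black minus grey (x axis), with its 95% interval from limma (n = 3 per colour), for the 6 measured interferon response genes (red) and the named genes of the wider list (dark grey), where the dotted blue line is the median of all genes (0.04). The intervals of ISG15 and RSAD2 are among the widest and include 0, and the value of IRF9 is affected by the joining of its transcripts with RNF31.

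The genes whose pattern was most like the mean of the 6 members, of 9465 genes with a symbol and a mean of 5 TPM or more, were CREB3, NFYB, PCYT2, SPCS1 and RARRES2, with Pearson r of 0.991, 0.991, 0.980, 0.979 and 0.965 over the 6 libraries. This is a description over 6 points that share library depth and composition. Within colours the r was 0.957 to 0.992. That value is from the same 6 libraries, for genes picked for their high r, so it is not a separate check.

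Depth ranged from 4.17 (grey 1) to 10.2 (grey 3) aligned gigabases, and RefSeq genes held 81.0% to 88.7% of TPM. Libraries correlated at 0.880 to 0.942. Cell-type markers differed between the libraries too. Grey 3, lowest for all 6 members, was lowest for 5 of 5 fibroblast markers (summed level 962 TPM, 2309 to 3609 in the other grey and 2304 to 2713 TPM in the black possums), and S100A8 stood at 7795 TPM in it (110 to 803 in the others). Black 1, highest for ISG15, was highest for 5 of 5 skeletal muscle markers (summed level 3474 TPM, 72.3 to 82.6 in grey and 75.4 to 128 TPM in the other black possums), and CKM was listed at 0 in the other 5. Macrophage and dendritic cell markers were highest in black 3 for 11 of 11 (summed level 515 to 832 TPM in grey, 612 to 1671 in black), where ISG15 was lower than in grey 1, and T cell markers (15.6 to 18.9 TPM for the grey and 17.1 to 30.8 TPM for the black possums) for 5 of 6. For plasmacytoid dendritic cells, known for high interferon output, the sum of IL3RA and TCF4 was 19.9 to 41.2 TPM for the grey and 33.4 to 39.3 TPM for the black possums, 2 of 2 lowest in grey 3, and SPIB was at 0 in 5 of 6 libraries. The part of these cell types, or of depth, in the member levels was not tested. Without grey 3 the mean difference of the 6 members was 0.39 and without black 1 it was 0.63, where all 6 libraries gave 0.69. Effectors minus regulators was 1.49 and 1.39 without these libraries, where all gave 1.79.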

How the data were processed

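Poly(A)-enriched, strand-specific libraries of ear skin from 3 grey and 3 black possums were sequenced as 120 nt single-end reads. Per the paper and the labels, the authors trimmed reads with Trim Galore (0.6.10), mapped them with HISAT2 (2.2.1), removed a contaminating amplicon and assembled each library with StringTie (2.2.0). The deposited files give coverage, FPKM and TPM per transcript, normalised values and not counts. The interferon genes and lists were chosen with earlier results of these data known.

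Aligned bases were derived from coverage and FPKM, and reads from coverage. The RefSeq table gives neither exons nor strand, so both were inferred from assembled transcripts matching a gene (joint-span overlap of at least 0.5, or 80% of one inside the other). Each transcript was assigned to the same-strand gene sharing most exon bases, otherwise by reference name, and TPM was summed per gene (232308 of 274079 transcripts, 17946 genes).

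Levels were compared with limma (3.58.1, R 4.3.3, mean-variance trend) on log2(TPM + 1) where the mean reached 1 TPM (Benjamini-Hochberg adjustment, threshold 0.05). Named genes were the members and, per role of the wider list, the 2 of highest mean and the 2 of largest difference. Genes named otherwise are marked as chosen after their values were seen. A gene that the rule names is not reported here. The fit was tested on simulated data of 15518 genes with 200 changed. Alternatives were other pseudocounts (0.1, 0.5), filters, scalings, transcript sets, variance models, a replicate block and leaving out each library. Tables and figures were made with Python (3.11.15) and matplotlib (3.10.9). Sequences were not used here. Same-numbered grey and black libraries did not deviate together.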

Additional observations from a re-analysis of the deposited data

How the results depend on the processing

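The mean difference of the 6 members stayed positive, from 0.39 to 1.07 over 18 alternatives, and effectors minus regulators from 1.02 to 2.53 over 19. Of these, dropping the filter, dropping the trend and adding the replicate block could not move either value and say nothing on its stability. Leaving out each library gave 0.39 to 1.07 and 1.39 to 2.53. The count of the 53 wider genes past the threshold was 0 in all 17 alternatives. Over all genes the count of 3 fell to 1 under a minimum mean of 5 TPM and to 0 with a replicate block, and ran from 0 to 3 without single libraries: 0 without grey 1 or grey 2, 1 without black 1 or black 3. The cause was not tested. Replicate numbers did not pair the libraries (correlation of deviations −0.04, 0.01 and −0.07 for same-numbered pairs). In this balanced design the replicate block leaves the member mean (0.69) and effectors minus regulators (1.79) unchanged by construction. Only the SE can move. For ISG15 it fell from 1.03 to 0.47, with an interval of 0.86 to 3.26. The SE also fell for RSAD2 and DDX58 and rose for IFIH1, STAT2 and IRF7. With the block 0 members passed the adjusted threshold. Since replicate numbers did not pair the libraries, the narrower ISG15 interval is not relied on here. Without single libraries DDX58 ran from 0.11 to 0.56 and IFIH1 from 0.00 to 0.31. RSAD2 rose from 1.54 to 2.51 with a pseudocount of 0.1 and to 2.55 by coverage of shared positions. The sign turned for IRF7 in 4 alternatives (lowest −0.24) and for STAT2 in 2 (highest 0.03). With 3 possums per colour and as few as 1.98 reads for RSAD2, small differences were not detectable.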
